A study of Mus musculus with 2 samples.

Results

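The cells described here are the 662 of 10017 clustered adipose immune cells that the authors' deposited table places in cluster 6, 1 of 13 clusters numbered 0 to 12. They were taken by that cluster number alone, and they came from both libraries of the study, 307 of 4458 clustered cells from the chow library and 355 of 5559 from the ketogenic diet library. Both libraries were made from wild-type C57BL/6 mice fed for 1 week, either on chow, which served as the control, or on a ketogenic diet, a very high-fat and low-carbohydrate feed that makes the liver release ketone bodies. The cells were CD45+ leukocytes of adipose tissue, separated from blood cells by a label injected into the circulation, and the RNA was read by droplet sequencing with molecular identifiers (UMIs), so that a count is a number of captured RNA molecules. The labels call the mice adult and give neither their number, their sex nor an exact age. With 1 library per diet there is no replicate check of any difference between diets, no test was possible, and the intervals given are 95% intervals for counting error only.

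Type 1 conventional dendritic cells (cDC1) are antigen-presenting cells that take up dead cells and show the captured antigens on MHC class I molecules to CD8 T cells, a process called cross-presentation. Their development needs the transcription factors IRF8, BATF3 and ID2 and the growth factor receptor FLT3. They carry the chemokine receptor XCR1, the dead-cell receptor CLEC9A and the adhesion molecule CADM1, and they respond to pathogens through TLR3 and TLR11.

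Cluster 6 held 2439090 UMIs in the chow library and 3482478 in the ketogenic diet library. The median was 7906 UMIs and 1906 genes per chow cell, and 9922 UMIs and 2221 genes per ketogenic diet cell. The median share of mitochondrial UMIs was 1.78% and 1.45%. Over all cells the medians were 3469 and 3461.5 UMIs, but the clusters differ in size between libraries, and the median was higher in the ketogenic diet library in 11 of the 13 clusters. Whether the cells of cluster 6 held more RNA or were read more deeply was not tested. Levels below are UMIs summed over the cluster and scaled to CPM, the usual scaling by the cluster's total UMIs. The libraries had 41 cell barcodes in common over all cells, and none between cluster 6 of one library and cluster 6 of the other.

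The clusters were made from expression, so the levels of cDC1 markers describe cluster 6 and are no test of its label. The cluster was compared with the others by 10 cDC1 markers. Of these, 9 were higher in cluster 6 than in each of the other 12 clusters, in both libraries: Xcr1, Naaa, Wdfy4, Cadm1, Irf8, Ifi205, Clec9a, Itgae and Tlr3. Xcr1 stood at 131 CPM in the chow library and 170 CPM in the ketogenic diet library. Clec9a stood at 149 and 128 CPM. Cadm1 stood at 176 and 154 CPM. For each of these 3 surface receptors the next highest cluster was cluster 10, whose cells carry the cycling markers, at 28.2 to 48.9 CPM. Batf3, the 10th marker, stood at 189 and 135 CPM and was higher in 2 other clusters, of which cluster 8 had 286 and 246 CPM.

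Single cells gave the same picture within the limits of their depth. After every cell was thinned to 1500 UMIs, which left out no cell, a UMI of Xcr1 was found in 17.6% of cluster 6 cells in the chow library (95% exact binomial interval 13.5 to 22.3%) and in 21.4% in the ketogenic diet library (17.3 to 26.0%). Without thinning the shares were 56.0% and 71.3%. In cluster 1, where the natural killer (NK) cell markers were highest and which should lack the receptor, the thinned shares were 0.276% and 0.0942%, with median depths of 2296.5 and 3147 UMIs. The share of cluster 6 cells with Xcr1 was therefore far above that of cluster 1, and the source of the Xcr1 UMIs in cluster 1 was not tested. Naaa, which encodes a lysosomal amidase, was found in 77.5% and 79.7% of thinned cluster 6 cells and in 4.70% and 3.39% of thinned cluster 1 cells.

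**Figure D1:**
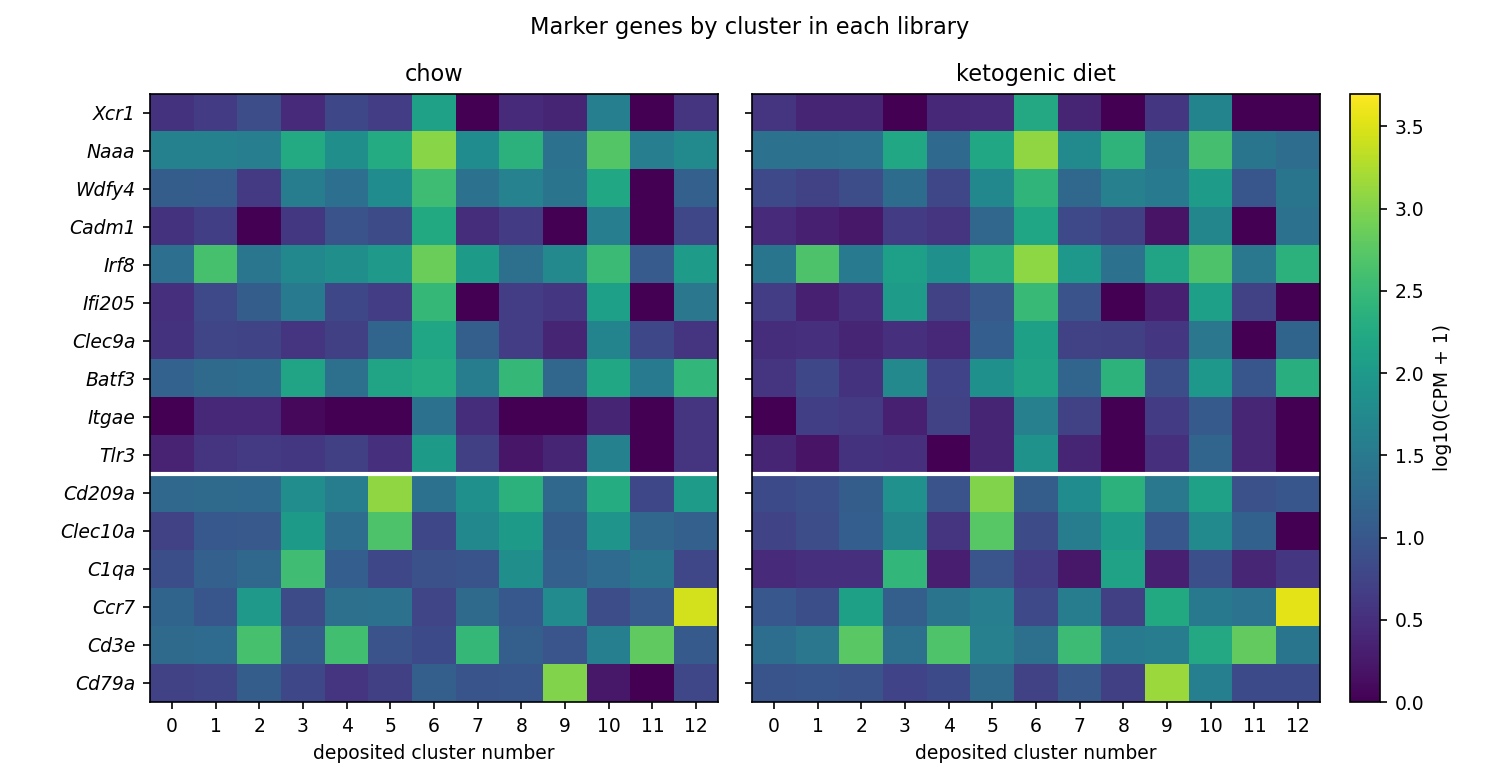
Level of the 10 cDC1 markers (above the white line) and of 6 genes of other cell types (below it) in the 13 deposited clusters, as log10(CPM + 1), in the chow library (left) and the ketogenic diet library (right). Column 6 is the brightest column for 9 of the 10 cDC1 markers in both libraries, and Batf3 is brighter in 2 other columns.

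The 20 genes that set cluster 6 apart most, by CPM plus 20 over all other clustered cells, are a description of the clustering and not a test. They included Cst3, Naaa, Ifi205, Cxx1a, Ppt1, Xcr1, Cadm1, Cxx1b, Wdfy4, BC028528, Irf8, Tnni2, Clec9a, Sept3, Rab7b, Plbd1, Ckb, Ncoa7 and Pkib. Cst3, which encodes the protease inhibitor cystatin C, stood at 32021 CPM in the chow library and 27968 CPM in the ketogenic diet library. Some of the others encode lysosomal or endosomal proteins: Ppt1 is a lysosomal hydrolase, and Rab7b is a small GTPase of late endosomes. Wdfy4 is needed for cross-presentation of cell-associated antigen. None of the 20 differed 2-fold between diets.

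Markers of the other dendritic cell types stood at different shares of the level in their own clusters. The summed level of the 10 markers of type 2 conventional dendritic cells was 120 CPM in the chow library and 119 CPM in the ketogenic diet library, 3.91% and 4.38% of their level in cluster 5. The 8 markers of mature, migratory dendritic cells summed to 47.1 and 63.2 CPM, which was 0.629% and 0.667% of their level in cluster 12, and Nudt17 was at 0 in both libraries. The 8 markers of plasmacytoid dendritic cells were nearer to theirs, at 193 and 149 CPM or 13.4% and 10.6% of cluster 9, and most of this was Bst2, at 135 and 106 CPM. Among the lists of other cell types only plasma cell genes stood higher than the 7 monocyte markers, at 602 and 616 CPM or 16.9% and 9.81% of the cluster where they were highest, and 37.5% and 53.0% of cluster 6 cells had at least 5 of their UMIs. Most of it was Ccr2 (340 and 335 CPM) and Plac8 (193 and 203 CPM), while F13a1 had 9 and 4 UMIs. The 5 mast cell markers summed to 41.8 and 31.0 CPM, 20.9% and 18.5% of their highest level, nearly all of it Kit, and the mast cell proteases Cpa3 and Mcpt4 were at 0. The 6 plasma cell genes, which include immunoglobulin chains, summed to 1414 and 1092 CPM, 0.365% and 0.508% of cluster 9.

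Some lists differed between the libraries. The 10 macrophage markers summed to 142 CPM in the chow library and 64.9 CPM in the ketogenic diet library. The 7 T cell markers summed to 65.6 and 235 CPM, and the 7 markers of group 2 innate lymphoid cells (ILC2) to 66.4 and 130 CPM. The NK cell list was at 80.8 and 82.1 CPM. A group of 56 cells described below, sub-cluster 4, carried many of these lymphocyte UMIs. Without it the T cell markers summed to 53.5 and 98.1 CPM, the ILC2 markers to 42.8 and 56.9 CPM and the NK cell markers to 64.6 and 53.6 CPM. The 5 stromal markers had no UMI in the chow library and 14 UMIs of 4 markers in the ketogenic diet library (4.02 CPM), where no cluster stood higher.

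Cluster 6 made up 6.89% of clustered cells in the chow library (6.16 to 7.67%) and 6.39% in the ketogenic diet library (5.76 to 7.06%). The ratio of the shares, ketogenic diet over chow, was 0.927, with an interval of 0.794 to 1.08 that includes 1. This ratio depended on which cells were counted. Clusters 3 and 8, which hold macrophage markers, were 19.3% and 8.12% of the chow library and 2.61% and 0.845% of the ketogenic diet library. Over the clustered cells outside them the share of cluster 6 was 9.48% and 6.61%, a ratio of 0.697 (0.597 to 0.815). Among cells with at least 3000 UMIs the ratio was 0.806 (0.689 to 0.944), and for cells counted by cDC1 markers in any cluster, as described next, it was 0.786 (0.668 to 0.925), so that these intervals did not include 1. Among the 3 dendritic cell clusters, 5, 6 and 12, cluster 6 was 43.2% and 46.6% of cells, a ratio of 1.08 (0.923 to 1.26).

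Some cells with cDC1 markers lay in other clusters. A cell was counted when, after thinning, it had a UMI of at least 2 of Xcr1, Clec9a, Naaa, Wdfy4, Cadm1 and Ifi205. This held for 71.7% of cluster 6 cells in the chow library and 68.5% in the ketogenic diet library. In cluster 10, the cycling cells, it held for 35 cells (24.6%) and 29 cells (18.8%). In cluster 5 it held for 3.20% and 2.79% of cells.

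The cells of cluster 6 were not uniform. Clustering them alone gave 6 sub-clusters, numbered 0 to 5 here, and each of them had Naaa, Clec9a and Irf8 (right panel of the plot of sub-clusters). Sub-cluster 0, with 222 cells, was led by the chemokines Ccl17 (200 CPM against 29.4 CPM in the other cells of cluster 6) and Ccl22 (84.6 against 7.92 CPM), the co-stimulatory ligand Tnfsf9, the NF-kappa-B inhibitor Nfkbia and the cytokine Tnf. Sub-cluster 1, with 192 cells, was led by Tppp3 (118 against 25.3 CPM), Ifitm6, Plac8 and the interferon-inducible genes Isg15 and Ifitm3 (846 against 373 CPM). Sub-cluster 2, with 91 cells, was led by the heat shock gene Hspa1a (387 against 119 CPM), Klf2 (1284 against 580 CPM) and Fos, and also by Cxcr3, Irf8 and Id2. The sub-clusters are named here by number only, since their leading genes were read off the clustering and no list was tested. At a finer resolution of 0.8 most of sub-cluster 1 fell into 99 cells led by Ifitm1, Isg15 and Plac8 and 87 cells led by Tppp3, Pdlim1 and Cd44, of which the second held 81 chow and 6 ketogenic diet cells.

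Dividing cells formed a pair of further groups. Sub-cluster 3, with 68 cells, was led by genes of DNA replication: Stmn1 (543 against 44.0 CPM), Mcm6, Mcm7, Lig1 and Pcna. Sub-cluster 5, with 33 cells, was led by genes of mitosis: Ccnb2 (320 against 3.18 CPM), Hmgb2, Cenpa, Birc5 and Ube2c.

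Sub-cluster 4, with 56 cells, was led by lymphocyte genes: Areg (243 against 20.3 CPM), Ccl5, Ms4a4b, Cd3g (169 against 14.5 CPM), Gata3 and Cd3d. Its cells had a median of 8974 UMIs in the chow and 11975 in the ketogenic diet library, above those of sub-clusters 0, 1, 2 and 5 in both libraries and below those of sub-cluster 3, at 10844 and 12337 UMIs. Over both libraries its median of 11489.5 UMIs was the highest of the 6. The 7 T cell markers summed to 348 CPM in its 13 chow cells and 1055 CPM in its 43 ketogenic diet cells. Of these, 3 and 29 cells had at least 5 UMIs of T cell markers. The doublet caller marked only 8 of 4545 and 2 of 5614 cells over whole libraries, which is too few for a working caller. Of cluster 6 it marked 2 cells, and both were in sub-cluster 4. Whether the other cells of this group are doublets was not settled by it. The main results on lymphocyte genes are given with and without this sub-cluster.

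The sizes of these sub-clusters are no comparison of the diets where their leading genes differ between libraries. Sub-cluster 2 held 4 chow and 87 ketogenic diet cells, and its first leading gene, Hspa1a, was more than 2-fold higher in the ketogenic diet library. A second clustering therefore left out the 477 genes that differed at least 1.5-fold, and it gave 7 groups. Its replication group held 11.7% of chow and 12.4% of ketogenic diet cells, a ratio of 1.06 (0.665 to 1.69). Its mitosis group, led by Ccnb2, held 8 chow and 21 ketogenic diet cells, a ratio of 2.27 with an interval of 0.966 to 5.93. The group led by Ccl17 and Tnfsf9 held 19.2% and 16.1%, a ratio of 0.835 (0.570 to 1.22). The group led by Wfdc17, Tppp3 and Ifitm6 held 33.9% and 23.1%, a ratio of 0.682 (0.504 to 0.920). The lymphocyte-gene group held 3.91% and 11.5%, a ratio of 2.95 (1.52 to 6.18). The group that matched sub-cluster 2 best, by shared cells over the cells of either, held 8 chow and 24 ketogenic diet cells, and 26 of these 32 cells were among the 91 of sub-cluster 2. Since the genes left out were those that differed between libraries, a weaker split by library followed from that choice and is no result.

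**Figure D2:**
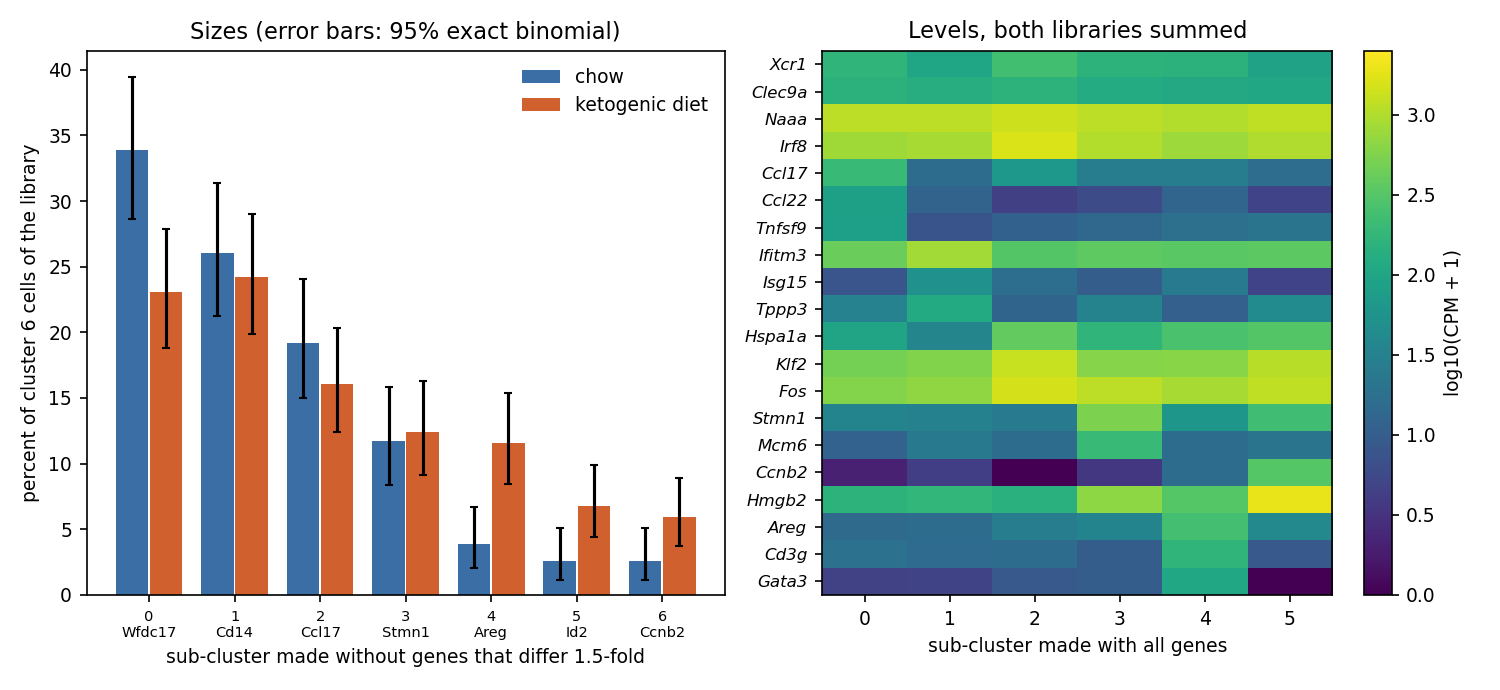
Left, percent of cluster 6 cells of each library in the 7 groups of the clustering that left out 477 genes differing 1.5-fold, each labelled by its first leading gene, with 95% exact binomial intervals; right, log10(CPM + 1) of 20 genes in the 6 sub-clusters made with all genes, both libraries summed. The lymphocyte-gene group (Areg) is at 3.91% of chow and 11.5% of ketogenic diet cells, and Ccl17, Ifitm3, Hspa1a, Stmn1, Areg and Ccnb2 are each brightest in a different sub-cluster.

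For the comparison of diets, a gene was kept when it had at least 100 UMIs over both libraries in cluster 6, which left 4354 genes, and 0.5 was added to each sum before the ratio was taken. A gene was called when its CPM differed at least 2-fold. Under the ketogenic diet 26 genes were called higher, 0.597% of those kept, and 30 were called lower, 0.689%. The median log2 ratio was 0.07, and 84.2% of genes lay within 0.5 of 0 on the log2 scale. With the libraries scaled by the median gene ratio instead, 19 genes were called higher and 42 lower, so that 31.1% of called genes were higher in place of 46.4%. Expression in this cluster was therefore close between the 2 libraries for most genes.

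The clusters in which the called genes were highest were compared with those of all genes. Of the 26 higher genes, 15 (57.7%) had their highest level in the ketogenic diet library in a cluster counted here as lymphoid, which were cluster 0, cluster 1 and the clusters richest in Cd3e (2, 4, 7 and 11). This held for 42.4% of all 4354 genes, so the share was not far from the background. Of the higher genes 4 were antigen receptor genes (Iglc1, Trac, Trbc1 and Trbc2), of which Iglc1 and Trbc1 turned to log2 ratios of -5.06 and -2.98, from few UMIs, when 10% of UMIs were subtracted as free RNA. Of the 30 lower genes, 14 (46.7%) had their highest level in the chow library in cluster 3 or 8, beside 16.9% of all genes. Apart from antigen receptor genes, the 12 highest ratios were those of Areg, Abcg1, Hspa1a, Lat, Cd3g, Skap1, Cd3d, Vps72, Idh2, Hspa1b, Ccnb2 and Thy1. The 12 lowest were those of Fn1, Retnla, Gm26870, Tppp3, Gm10800, Cxcl2, Ccl9, Ccl2, Bcl2a1c, Isg15, Ifitm6 and Sdc4. A single chow cell held 33 of the 69 UMIs of Sdc4 in that library. Of the higher genes 0 of 26 were highest in cluster 6 in the ketogenic diet library, beside 7.26% of all genes, and of the lower genes 3 of 30 (10.0%) were so in the chow library, beside 6.94%. Both shares were near the background. The genes were also ranked among the 1155 whose CPM in cluster 6 was, in both libraries, at least that over all other clustered cells. Of these, 1 was called higher (Hspa1a) and 6 were called lower (Bcl2a1c, Jdp2, Bckdhb, Bcl6, Timd4 and Aff1).

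**Figure D3:**
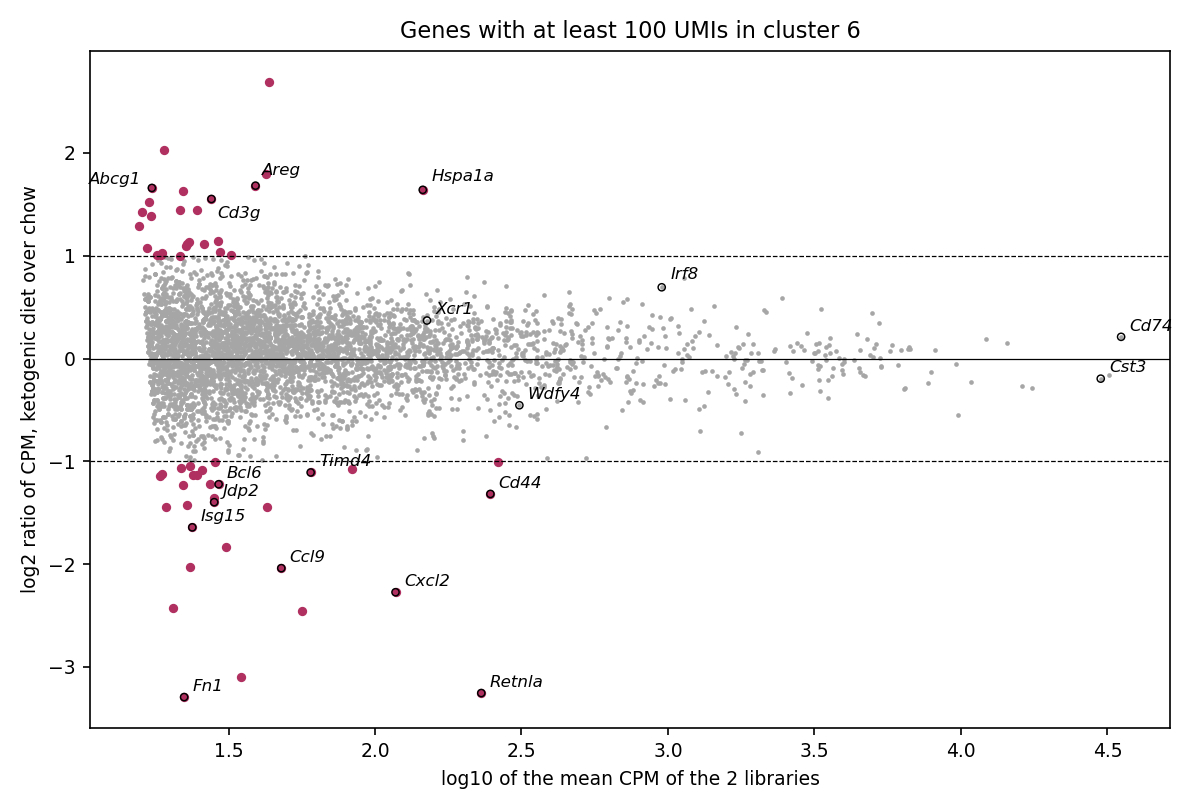
Log2 ratio of CPM in cluster 6, ketogenic diet over chow, against log10 of the mean CPM of the 2 libraries, for the 4354 genes with at least 100 UMIs; dashed lines mark 2-fold, called genes are red, and circled genes are labelled. Most genes lie between the lines, and the genes farthest below 0 include Fn1 at -3.29 and Retnla at -3.25.

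Transcription factors of dendritic cells differed in both directions. Of 22 on the list, 17 had enough UMIs, of which 5 were higher and 12 lower. The median log2 ratio was -0.23, beside 0.07 over all genes, and 1 gene was called. Irf8, the factor that commits precursors to the cDC1 fate, had 1774 UMIs in the chow library and 4097 in the ketogenic diet library, or 727 and 1176 CPM. Its log2 ratio was 0.69 (0.61 to 0.77), short of the 2-fold line. A UMI of Irf8 was found in 62.5% and 76.9% of thinned cells. In cluster 0, where the ILC2 markers were highest and median depths were 2610.5 and 3133 UMIs, it was found in 2.93% and 3.36%. Irf8 was higher under the ketogenic diet in every sub-cluster with more than 4 cells per library, at log2 ratios of 0.56, 0.54, 0.71, 0.51 and 0.54 in sub-clusters 0, 1, 3, 4 and 5. It was also higher in 11 of the 12 other clusters, at 1.11 in cluster 5 and 1.16 in cluster 12.

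Bcl6, a transcriptional repressor used by cDC1 and by germinal-centre B cells, was the called member of the list. It had 100 UMIs in 85 chow cells and 61 UMIs in 58 ketogenic diet cells, or 41.0 and 17.5 CPM, a log2 ratio of -1.22 (-1.71 to -0.75). The ratio was below 0 in each of the 5 sub-clusters compared, at -1.34 in sub-cluster 0 and -1.52 in sub-cluster 1, and at -0.65 in sub-cluster 5, where only 10 UMIs were counted. Bcl6 was lower in all 6 other clusters that had 20 UMIs, so the difference was not confined to cluster 6. Batf3, the partner of IRF8 in cDC1, had a log2 ratio of -0.48 (-0.67 to -0.29), and it was lower in all 10 other clusters with 20 UMIs. Rbpj, which carries the Notch signal, stood at 200 and 117 CPM. Id2 stood at 433 and 510 CPM, and Mycl, which supports proliferation of dendritic cells, at 34.0 and 53.4 CPM.

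Growth factor receptors and their signalling genes had a median log2 ratio of -0.41 over the 9 of 18 with enough UMIs, and none was called. The receptor that cDC1 depend on, Flt3, stood at 90.2 and 117 CPM, a log2 ratio of 0.38 (0.14 to 0.62). Csf2ra, the alpha chain of the GM-CSF receptor, stood at 152 and 187 CPM, and Csf2rb, its beta chain, at 106 and 82.7 CPM. Notch2 stood at 247 and 152 CPM, a log2 ratio of -0.70. Flt3 and Csf2ra were thus higher and the other 7 genes lower, all short of 2-fold.

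Surface and identity genes of cDC1 had a median log2 ratio of 0.20 over 19 of 25 list members, with 12 higher and 7 lower and none called. Itgae, which encodes the integrin CD103, stood at 23.8 and 39.9 CPM, a log2 ratio of 0.74 (0.30 to 1.22). Sult1a1, a sulfotransferase, stood at 34.8 and 61.7 CPM. Tlr11, the receptor for profilin of protozoa, stood at 17.2 and 27.3 CPM. Wdfy4 lay on the other side, at 360 and 262 CPM, a log2 ratio of -0.45 (-0.59 to -0.32). Cd36, a scavenger receptor, stood at 144 and 111 CPM. The shifts of these genes were under 2-fold in either direction. The cells had been chosen by a cluster number made from expression, so that the presence of the genes in both libraries follows from the choice.

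Genes for antigen uptake and cross-presentation had a median log2 ratio of -0.10 over 18 of 25 members, with 1 called lower. That gene was Timd4, a receptor for phosphatidylserine on dying cells. Timd4 had 201 UMIs in 93 chow cells and 133 UMIs in 65 ketogenic diet cells, or 82.4 and 38.2 CPM, a log2 ratio of -1.11 (-1.44 to -0.79). It was a gene of this cluster: all other clustered cells stood at 2.43 and 1.47 CPM. By sub-cluster the log2 ratio of Timd4 was -0.56 in sub-cluster 0, -1.25 in sub-cluster 1 and -2.49 in sub-cluster 3. It was -0.65 in sub-cluster 4, from 6 and 20 UMIs, and -0.08 in sub-cluster 5, from 3 and 7. Timd4 is among the leading genes of sub-cluster 0, at 102 against 35.1 CPM. That sub-cluster held 40.4% of chow and 27.6% of ketogenic diet cells, so the value over the cluster also depends on how the cells divide. Syk, the kinase that CLEC9A signals through, stood at 32.8 and 18.4 CPM. Havcr2, which encodes the inhibitory receptor TIM-3, stood at 69.7 and 48.0 CPM. The oxidase subunit Cyba stood at 993 and 951 CPM.

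MHC genes differed little. The class I list had a median log2 ratio of 0.17 over 21 of 23 members, with 15 higher and none called. H2-D1 stood at 1524 and 1883 CPM, and the immunoproteasome subunit Psmb8 at 863 and 1064 CPM. H2-T22 came closest to 2-fold, at 27.5 and 54.0 CPM, but it is one of a family of near-identical genes whose reads can be split between copies. The class II list had a median of 0.14 over 15 of 17 members, and the invariant chain Cd74 stood at 32627 and 37782 CPM. Lysosomal genes had a median of 0.16 over 17 of 22 members.

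Maturation and co-stimulation genes had a median log2 ratio of 0.14 over 10 of 29 members, and none was called. Cd86, a co-stimulatory ligand for CD28, stood at 84.5 and 112 CPM. Marcks, a substrate of protein kinase C, stood at 351 and 225 CPM, a log2 ratio of -0.64. The other 19 members had under 100 UMIs.

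Among 25 cytokines and chemokines 14 had enough UMIs. The median log2 ratio was -0.24, and Ccl9 and Ccl2 were called lower. Without the cells with at least 5 cell cycle UMIs the median was 0.17. Ccl9 stood at 77.1 and 18.7 CPM, and Ccl2, which attracts monocytes, at 37.7 and 9.19 CPM. Both were far below cluster 3 in the chow library, at 3.59% and 3.57% of its level. When 10% of each library's UMIs in the cluster were subtracted as free RNA, neither call held: Ccl9 had 0 and 6.87 UMIs left, which turned its log2 ratio to 3.37, and Ccl2 had 16.9 and 22.7, a ratio of -0.10. Their lower levels moved with the size of clusters 3 and 8 in the library and with the macrophage markers in cluster 6 given above, and the part of these in the result was not tested. Il1b stood at 790 and 766 CPM. Ccl22 stood at 24.2 and 37.9 CPM, and Ccl17 at 93.5 and 76.7 CPM, a log2 ratio of -0.29. Ccl17 stood at 585 and 112 CPM in cluster 5 and at 4231 and 821 CPM in cluster 12, and a difference between clusters could not be tested.

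Genes of trafficking and adhesion had a median log2 ratio of -0.02 over 13 of 24 members. Cd44, the hyaluronan receptor, was called lower. It had 862 UMIs in the chow library and 494 in the ketogenic diet library, or 353 and 142 CPM, a log2 ratio of -1.32 (-1.48 to -1.16). A UMI of Cd44 was found in 38.4% and 19.7% of thinned cells. The ratio lay between -1.47 and -0.72 in the 5 sub-clusters compared. Cd44 was also lower in all 12 other clusters, at log2 ratios from -1.57 to -0.32. Cxcr3, a receptor for interferon-inducible chemokines, stood at 41.8 and 75.2 CPM in cluster 6, a log2 ratio of 0.84 (0.51 to 1.19), and was higher in all 10 other clusters with 20 UMIs. Cxcr4 stood at 49.2 and 25.6 CPM, and Itga4 at 93.5 and 58.6 CPM.

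Interferon-stimulated genes had a median log2 ratio of -0.06 over 14 of 36 members, of which 5 were higher, 9 lower and 1 called. The called gene was Isg15, a ubiquitin-like modifier, with 88 and 40 UMIs or 36.1 and 11.5 CPM. A single chow cell held 28 of its 88 UMIs, and equally many cells, 32, had a UMI in each library. Ifitm3, an antiviral membrane protein, stood at 695 and 355 CPM, a log2 ratio of -0.97 (-1.08 to -0.86). Ifi27l2a stood at 151 and 103 CPM. Irf7 was close between libraries, at a log2 ratio of -0.05. Isg15 was higher under the ketogenic diet in 7 of the 12 other clusters and lower in 5.

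**Figure D4:**
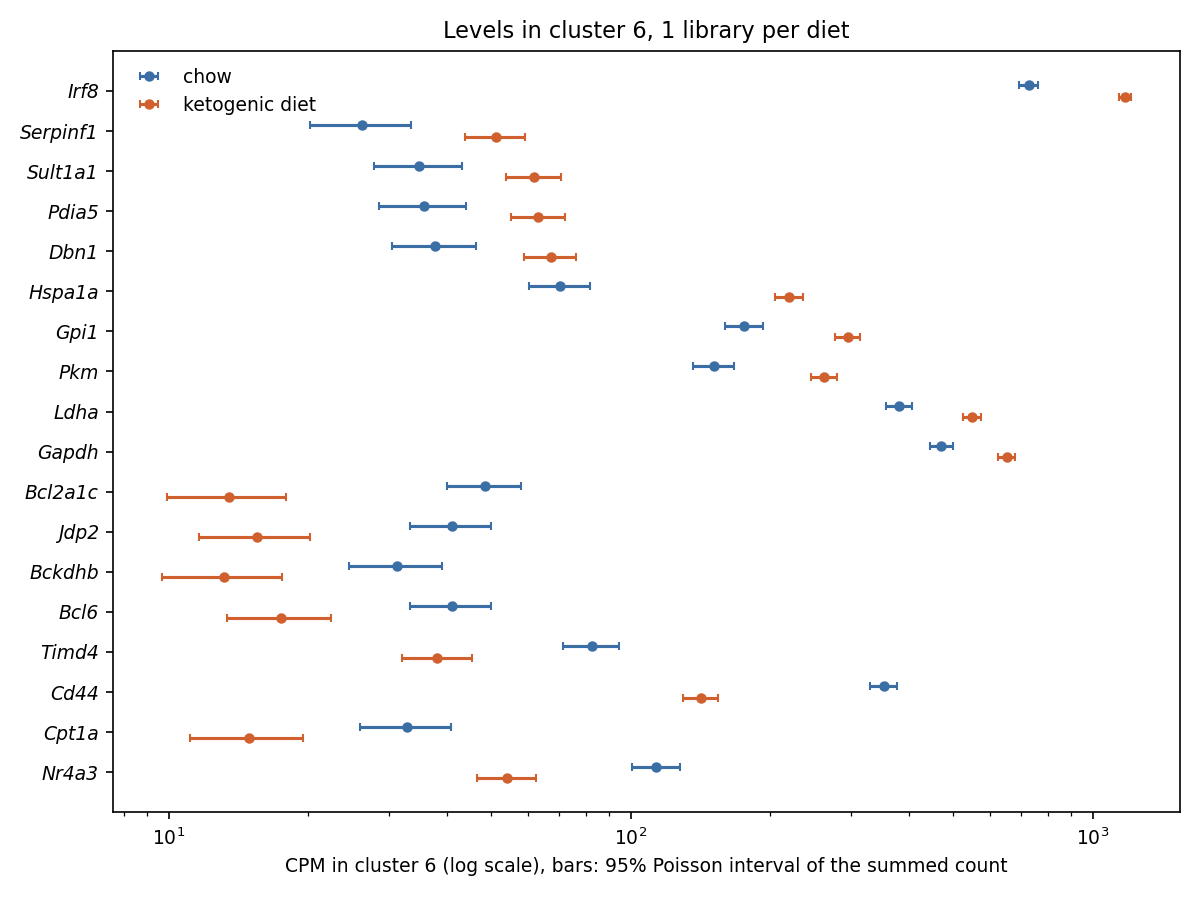
CPM in cluster 6 of 18 genes in the chow and the ketogenic diet library on a log scale, with 95% Poisson intervals of the summed count and 1 library per diet. The intervals of the 2 libraries do not overlap for these genes, with Irf8 at 727 and 1176 CPM, Hspa1a at 70.5 and 221 CPM and Cd44 at 353 and 142 CPM.

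Immediate early and stress genes had a median log2 ratio of 0.07 over 30 of 34 members, the value over all genes, with 2 called higher and 1 lower. Heat shock genes were the higher ones. Hspa1a, an inducible chaperone of the HSP70 family, had 172 UMIs in 52 chow cells and 768 UMIs in 139 ketogenic diet cells, or 70.5 and 221 CPM, a log2 ratio of 1.64 (1.40 to 1.89). The count was uneven, since single cells held up to 44 and 68 of these UMIs. A UMI of Hspa1a was found in 5.21% and 15.2% of thinned cells of cluster 6, and in 1.24% and 3.95% of those of cluster 1. Hspa1b, its near-identical neighbour, stood at 9.43 and 25.0 CPM, a log2 ratio of 1.38. Reads of the pair can be split between the copies, so each value is uncertain. The constitutive chaperone Hspa8 stood at 1954 and 2936 CPM, and the co-chaperone Dnajb1 at 59.0 and 88.2 CPM.

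Hspa1a lies on mouse chromosome 17 at 34969190 to 34972156, on the minus strand (GRCm38). The 250 bases before the RefSeq start of each gene of the pair (GRCm38.p6, chr17:34972157-34972406 for Hspa1a and chr17:34959239-34959488 for Hspa1b, minus strand) are shown because both genes were called and lie near each other. Capitals mark the motif GAANNTTC, a string of the kind found in heat shock elements, which reads the same on both strands.
Hspa1a: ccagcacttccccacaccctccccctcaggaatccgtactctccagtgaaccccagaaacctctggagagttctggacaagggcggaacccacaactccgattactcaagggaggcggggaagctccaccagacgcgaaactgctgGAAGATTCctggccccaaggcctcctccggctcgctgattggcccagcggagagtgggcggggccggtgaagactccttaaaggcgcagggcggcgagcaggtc
Hspa1b: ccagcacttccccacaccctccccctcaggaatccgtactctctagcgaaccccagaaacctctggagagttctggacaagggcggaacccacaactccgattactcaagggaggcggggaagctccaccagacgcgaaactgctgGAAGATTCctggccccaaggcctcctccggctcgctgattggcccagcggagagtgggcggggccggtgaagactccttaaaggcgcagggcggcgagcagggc
The windows had 247 of 250 bases in common (98.8%). Each held 1 match, starting 104 bases before the gene's start. The motif was found in 6.69% of 32851 RefSeq promoter windows of this length. The other order, TTCNNGAA, was in neither window and in 7.17% of all windows. A match is a description of the letters and not a site of binding, and 2 windows that are nearly the same sequence are not separate occurrences.

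The higher level of Hspa1a was neither even within cluster 6 nor particular to it. By sub-cluster its log2 ratio was 2.24 in sub-cluster 0, -0.13 in sub-cluster 1, 0.88 in sub-cluster 3, -1.09 in sub-cluster 4 and 2.91 in sub-cluster 5. In sub-cluster 4 the 13 chow cells had 47 UMIs, and only there were enough to hold the chow cell with the most UMIs given above. That ratio therefore rests largely on a single cell. Sub-cluster 2, which Hspa1a leads, held 4 chow and 87 ketogenic diet cells and was not compared. The ratios in the other sub-clusters also depend on this division. Hspa1a was higher under the ketogenic diet in all 12 other clusters, at log2 ratios from 0.38 to 2.69, with 1.55 in cluster 5. The other members of the list lay on both sides: of all 30, 16 were higher and 14 lower. Klf2 was at a log2 ratio of 0.27 (0.18 to 0.37) and Btg2 at 0.49 (0.42 to 0.56). Nr4a3, an orphan nuclear receptor, was called lower at 114 and 54.0 CPM, a log2 ratio of -1.07 (-1.35 to -0.80), and it was lower in all 12 other clusters. Egr1 stood at 180 and 97.1 CPM, and Fosb at 754 and 476 CPM. Nr4a3 was at -0.93, short of 2-fold, without cells that had at least 5 cell cycle UMIs.

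Fos, a subunit of the AP-1 factor, differed in direction between sub-clusters. Over the whole cluster it stood at 829 and 924 CPM, a log2 ratio of 0.16 (0.07 to 0.24). In sub-cluster 0 its log2 ratio was -0.79 (-0.97 to -0.61), and in sub-cluster 1 it was -1.31 (-1.52 to -1.10). In sub-clusters 3, 4 and 5 it was 0.41, 0.50 and 1.81. Fos is among the leading genes of sub-cluster 2, which held 87 of its 91 cells from the ketogenic diet library. The value of Fos over the cluster and its ratios in the other sub-clusters therefore also depend on how the cells divide. The sub-clusters were made partly by Fos, so those ratios are no separate comparison of the diets. Junb, the partner of Fos, stood at 1132 and 1276 CPM, with log2 ratios of 0.07, -0.39, 0.20, 0.20 and 0.93 in sub-clusters 0, 1, 3, 4 and 5. For Egr1 the ratios were -1.18, -2.05, -0.91, -1.20 and 0.77, the last from 3 and 13 UMIs.

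Among genes with a level in cluster 6 at or above that of other cells, the lower ones had varied roles. Bcl2a1c, of the BCL2A1 survival family, stood at 48.4 and 13.5 CPM, a log2 ratio of -1.83 (-2.36 to -1.34), but the family's copies share sequence and its counts are uncertain. Jdp2, a repressor of AP-1, had 100 and 54 UMIs or 41.0 and 15.5 CPM, a log2 ratio of -1.40 (-1.91 to -0.91), and was highest in cluster 6 in both libraries. Bckdhb, a subunit of the enzyme that degrades branched-chain amino acids, stood at 31.2 and 13.2 CPM. Aff1, of the super elongation complex, stood at 34.8 and 16.4 CPM. Jdp2 was lower in all 6 other clusters with 20 UMIs and Aff1 in all 10, while Bckdhb was lower in 2 and higher in 3.

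On the higher side of the same group Hspa1a was followed by genes short of 2-fold. Serpinf1, which encodes a secreted serpin, had 64 and 178 UMIs or 26.2 and 51.1 CPM, a log2 ratio of 0.95 (0.54 to 1.40), and was highest in cluster 6 in both libraries. Dbn1, an actin-binding protein, stood at 37.7 and 67.2 CPM. Pdia5, a disulfide isomerase, stood at 35.7 and 63.2 CPM. These genes were nearly restricted to the cluster, since all other clustered cells stood at 2.06 to 3.86 CPM for the 3 genes. Ifitm1 had 44 and 115 UMIs, but 63 of the 115 UMIs in the ketogenic diet library came from 1 cell.

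Glycolytic genes were higher under the ketogenic diet in 9 of the 13 of 22 members with enough UMIs. The median log2 ratio was 0.45, beside 0.07 over all genes, and none was called. Pkm, the last enzyme of the pathway, stood at 151 and 262 CPM, a log2 ratio of 0.79 (0.62 to 0.97). Gpi1, an early step, stood at 176 and 295 CPM, a log2 ratio of 0.74 (0.58 to 0.91). Eno1 stood at 99.6 and 163 CPM. Ldha, which makes lactate, stood at 380 and 548 CPM, a log2 ratio of 0.53 (0.41 to 0.64). Pgk1 was on the other side at 73.8 and 55.1 CPM. The same 13 genes had a median of 0.30 in cluster 5, and Gpi1 and Ldha were higher in all 12 other clusters.

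Genes of ketone body use were few. Of 14 on the list 4 had enough UMIs, and all 4 were higher, with a median log2 ratio of 0.47 and none called. Oxct1, the enzyme that lets cells burn ketone bodies, stood at 44.3 and 69.2 CPM, a log2 ratio of 0.64 (0.31 to 0.99). For Acat1 and Slc16a6 the ratios were 0.32 and 0.50, and their intervals included 0. Oxct1 was higher in 7 of the 12 other clusters and lower in 5.

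Fatty acid oxidation and uptake genes had a median log2 ratio of 0.06 over 19 of 32 members. Cpt1a, which brings long-chain fatty acids into mitochondria, was called lower, at 32.8 and 14.9 CPM and a log2 ratio of -1.13 (-1.67 to -0.61). It was also lower in all 10 other clusters with 20 UMIs. Acsl5, which activates fatty acids, stood at 49.6 and 78.7 CPM, and Acsl4 at 33.6 and 18.4 CPM. The list did not shift as a whole.

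Respiratory genes split by genome. The 12 of 13 mitochondrially encoded genes with enough UMIs were all lower, with log2 ratios from -0.54 to -0.17 and a median of -0.39, and none was called. The mitochondrially encoded mt-Co1 stood at 3976 and 3040 CPM, and it was lower in 11 of the 12 other clusters. The 42 of 44 nuclear genes of the tricarboxylic acid cycle and respiratory chain were higher in 21 and lower in 21, with a median of 0.00. Among them Idh3a stood at 26.6 and 42.5 CPM and Uqcrq at 342 and 266 CPM. The mitochondrially encoded genes also move with the share of mitochondrial UMIs, which was lower in the ketogenic diet cells as given above, and RNA quality as a part of this was not tested.

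The remaining lists held 3 called genes. Cholesterol synthesis genes had a median log2 ratio of -0.10 over 10 of 26 members. The same 10 genes had a median of -0.88 in cluster 5, where 9 of them had enough UMIs. Cholesterol efflux genes had a median of -0.01 over 4 of 14, with Abcg1, a sterol exporter, called higher at 8.20 and 26.4 CPM. That median was unstable, at 1.11 with 10% of UMIs subtracted as free RNA and -0.53 without sub-cluster 4. Metallothionein and iron genes had a median of 0.02 over 14 of 25, with Mt1 called lower at 352 and 175 CPM and lower in all 12 other clusters. It lay at the 2-fold line, and its log2 ratio was -0.92 without sub-cluster 4. Cell cycle genes had a median of -0.06 over 10 of 37, with Ccnb2 called higher at 9.02 and 22.4 CPM. Without the cells that had at least 5 cell cycle UMIs, Ccnb2 kept 3 UMIs in each library and a log2 ratio of -0.20. Ccnb2 is on the list by which those cells were left out, so its loss follows from that choice. Inflammasome genes (7 of 14), genes responsive to interferon-gamma (4 of 22), pattern recognition genes (7 of 24), nuclear receptors and diet-linked regulators (6 of 23) and S100 and annexin genes (16 of 18) had no called member, with medians of -0.08, 0.21, 0.13, -0.09 and -0.13.

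**Figure D5:**
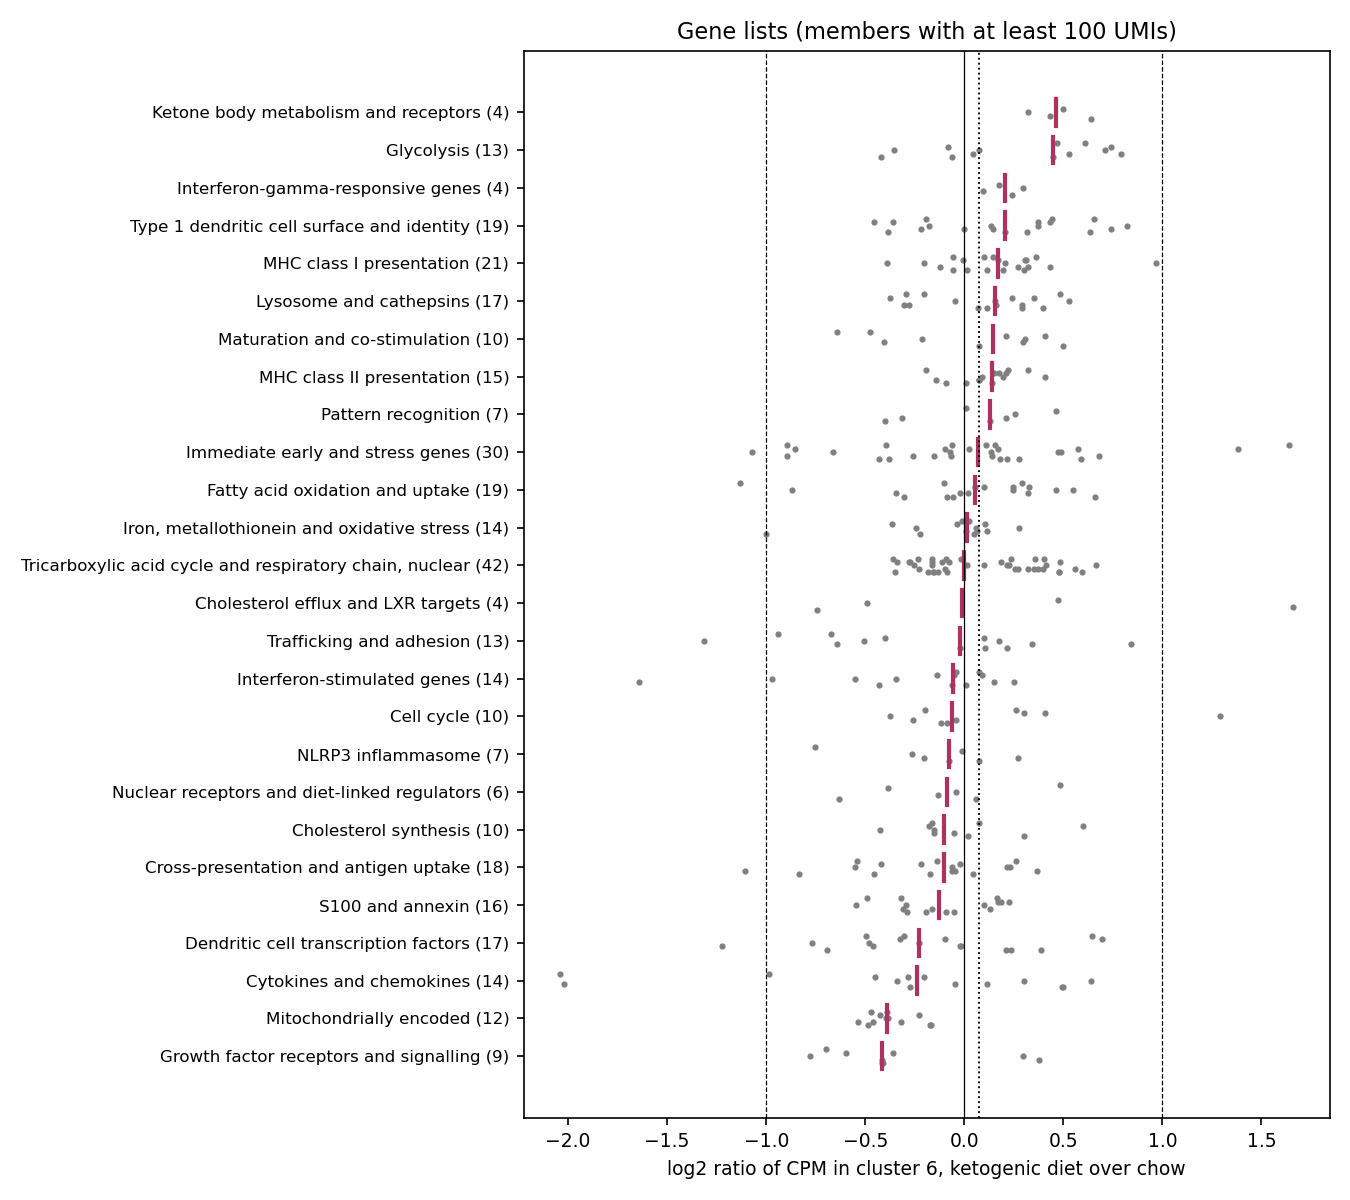
Log2 ratio of CPM in cluster 6, ketogenic diet over chow, of each list member with at least 100 UMIs (grey points; their number stands in brackets), with the list's median as a red bar, the median of all 4354 genes as a dotted line and 2-fold as dashed lines. List medians run from -0.41 for growth factor receptors and signalling to 0.47 for ketone body metabolism.

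Lymphocyte genes were among the genes called higher. Areg, a growth factor of ILC2 and regulatory T cells, had 45 UMIs in the chow library and 208 in the ketogenic diet library, or 18.4 and 59.7 CPM, a log2 ratio of 1.68. Cd3g, a chain of the T cell receptor complex, stood at 13.9 and 41.3 CPM, a ratio of 1.55. Both were under 5% of their level in the cluster where they were highest. Without the 56 cells of sub-cluster 4 the log2 ratio was 0.88 for Areg and 0.36 for Cd3g, and the T cell markers summed to 53.5 and 98.1 CPM. Lat, Thy1 and Cd3d, a further chain of the T cell receptor complex, were at 0.69, 0.36 and 0.72 without these cells. Skap1, an adaptor of T cell signalling, was at 1.53 with them and 1.36 without them, from 10 and 34 UMIs. Without them 15 genes were called higher and 29 lower, of which 7 and 23 were among those called with all cells. Only 13 of the 26 higher genes still had 100 UMIs, and 6 of those that did not were still at least 2-fold higher (Idh2, Hspa1b, Abcg1, Skap1, Ccnb2 and Inpp5k), so part of the loss came from the minimum. Without the cells with at least 5 cell cycle UMIs, which left 220 chow and 212 ketogenic diet cells, 12 were called higher and 22 lower, of which 3 and 12 were among those called with all cells. Of the 26 higher genes only 4 still had 100 UMIs in those cells, and Hspa1a, Iglc1 and Trbc2 stayed called, while 12 of those under the minimum were still at least 2-fold higher. When 10% of UMIs were subtracted as free RNA, 22 of the 26 higher genes were still at least 2-fold higher. Of those 22, 13 had under 100 UMIs left. The direction turned for 3 of the 26, among them Thy1 at -3.83, from few UMIs.

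Genes highest in the clusters with macrophage markers were among those called lower. Retnla, a secreted marker of alternatively activated macrophages, had 1018 UMIs in 286 chow cells and 152 UMIs in 126 ketogenic diet cells, or 417 and 43.6 CPM, a log2 ratio of -3.25 (-3.51 to -3.01). Fn1 stood at 40.6 and 4.02 CPM, and Cxcl2 at 195 and 40.2 CPM. Retnla was at 1.98% of its cluster 8 level in the chow library and Fn1 at 2.32%. Over all other clustered cells Retnla stood at 4602 and 439 CPM, so the wider libraries differed in the same direction as cluster 6. When 10% of UMIs were subtracted as free RNA, Retnla kept 14.4 and 18.4 UMIs and a log2 ratio of -0.17, Cxcl2 24.5 and 27.4 UMIs and -0.36, and Fn1 0 and 1.78 UMIs. None of the 3 was then at least 2-fold lower, while 23 of the 30 lower genes were. Of those 23, 6 had under 100 UMIs left. The macrophage markers, the size of clusters 3 and 8 and these genes moved together, and their part in the result was not tested.

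Cluster 6 differed between diets in fewer genes than the cDC2-like cluster 5, where 55 of 4242 genes were called higher (1.3%) and 38 lower (0.896%), with 93 in all (2.19%) beside 56 in cluster 6 (1.29%). In the mature-dendritic-cell-like cluster 12, 22 of 790 genes were called higher (2.78%) and 15 lower (1.9%), 37 in all (4.68%), but it had 60 chow and 49 ketogenic diet cells. The number of UMIs sets how far chance moves a ratio, and no difference between these counts was tested. All 3 clusters come from the same 2 libraries, so their values are not independent of each other.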

How the data were processed

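The authors deposited raw UMI counts per gene and cell, 1 matrix per library, with whole-number values and no normalization, per the file headers. Cell Ranger, Seurat and the mm10 build are named in the submitters' processing notes, without versions or settings. The authors' deposited cluster table gives cluster numbers at a resolution of 0.5 and t-SNE coordinates (a score with no fixed range), which were not used. It leaves out 142 cells, all with over 5% mitochondrial UMIs.

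Here, counts were summed over cluster 6 in each library and scaled to CPM, with exact Poisson intervals for sums, exact binomial (Clopper-Pearson) intervals for shares and exact conditional intervals for ratios, at 95%. PCR copies are merged by UMI, and intervals cover counting error only. The scripts were tested on simulated data. Cells of cluster 6 were clustered with scanpy 1.11.5 and leidenalg 0.10.2 on 1000 variable genes, 15 components and 15 neighbours at a resolution of 0.5. Scrublet marked 0.176% and 0.0356% of cells, which is too few for a working caller, so doublets were not removed. Of 28692 gene IDs, 28416 (99.0%) were in GENCODE M21 (GRCm38), and promoters are from RefSeq.

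Genes were named by rule: the 12 highest and 12 lowest ratios, leaving out mitochondrial, immunoglobulin and T cell receptor genes; the same among genes at or above the level of other cells; the 20 defining genes; all cDC1 markers; and from each list the called members or up to 4 with the most UMIs. Other list members in the text were chosen after their values were seen. The members and lists were chosen with earlier results of these data known, and the lists support nothing as independent evidence. Some genes that these rules name are not reported here.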

Additional observations from a re-analysis of the deposited data

Results flagged for a closer look

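Outside the deposited clusters, 8 of 87 chow cells (9.20%, exact binomial interval 4.05 to 17.3%) and 0 of 55 ketogenic diet cells had UMIs of at least 2 of the 6 cDC1 markers after thinning, which is a signal in cells that the comparisons did not use. A count of 0 among 55 cells allows a share of up to 6.49% (exact binomial). These cells had a median of 6.19% and 6.10% mitochondrial UMIs.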

How the results depend on the processing

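The share of cluster 6 in the chow and the ketogenic diet library became 11.7% and 9.43% (ratio 0.806, 0.689 to 0.944) with at least 3000 UMIs per cell. It became 9.48% in chow with a ratio of 0.697 without clusters 3 and 8, and 43.2% and 46.6% among dendritic cells. It became 5.38% in the ketogenic diet library (ratio 0.786, 0.668 to 0.925) by markers alone, 7.69% in chow with marker-positive cells of clusters 10 and 12 added, and 5.61% in the ketogenic diet library without sub-cluster 4.

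Genes called higher and lower numbered 86 and 77 with a minimum of 50 UMIs, 5 and 9 with 200 UMIs, and 294 and 183 at 1.5-fold. Called higher genes numbered 12 without cells with at least 5 cell cycle UMIs, of which 3 were among the 26 called with all cells (lower 22, of which 12 were among the 30), and 15 without sub-cluster 4 (7 of the 26, with 6 more past 2-fold but under 100 UMIs). List members called higher numbered 8 with a minimum of 50 UMIs. With 200 UMIs 1 was higher and 5 were lower. Without sub-cluster 4, 1 was higher, and at 1.5-fold 24 were higher and 29 lower.

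Subtracting 10% of UMIs as free RNA turned Ccl9 to 3.37, Fn1 to 1.67 and Thy1 to -3.83, and moved the cholesterol efflux median to 1.11. That median was -0.53 without sub-cluster 4. Leaving out cell cycle cells turned Idh2 to -0.0097 and Ccnb2 to -0.20, and moved the medians of cytokines to 0.17 and of immediate early genes to -0.12. Few UMIs were left behind these turned values: 0 and 6.87 for Ccl9, 0 and 1.78 for Fn1, 4.47 and 0 for Thy1, 14 and 16 for Idh2, and 3 and 3 for Ccnb2. Of 229 list medians under alternatives 225 stayed within the limits set by counting error.

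At a resolution of 0.8, sub-clusters 0, 1 and 2 each divided for the most part into a pair of groups, of 109 and 112, 99 and 87, and 50 and 46 cells. Without genes differing 1.5-fold, the group that matched sub-cluster 2 best had 32 cells. The exclusion of the lymphocyte-gene sub-cluster and the other resolutions were chosen after seeing the data. The 2 alternatives with scrublet were not run because the caller did not work. No paired analysis was possible because each diet has 1 library. Depth limits lists whose members had under 100 UMIs.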
